A study of Mus musculus with 16 samples.

Results

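The absorptive surface of the intestine is a brush border of microvilli, and the RNA of 10 genes that build it was followed in 16 cultures of mouse jejunal enteroids. Each microvillus has a core of parallel actin filaments, which villin, fimbrin and espin bundle, EPS8 caps at the tip, and ezrin and myosin 1a tie to the membrane. Neighboring microvilli are joined at their tips by the cadherins CDHR2 and CDHR5, which the motor MYO7B and the scaffold harmonin hold from inside the cell. Loss of the recycling endosome motor MYO5B in people causes microvillus inclusion disease, in which the brush border is sparse and microvilli lie in vacuoles within the enterocyte. The members were taken by gene symbol (Vil1, Espn, Pls1, Ezr, Myo1a, Eps8, Cdhr2, Cdhr5, Myo7b and Ush1c), 10 of the 54532 genes in the count tables, and all 10 passed the filter on low counts in every comparison. The rule lists them by gene function, and they were chosen with earlier results of these data known.

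The enteroids were grown from jejunal crypts of 4 mice in each of 4 groups of 4 cultures, passaged and then kept in differentiation medium. MYO5BΔIEC enteroids carried Vil-CreERT2 and Myo5b-flox/flox, MYO5B(G519R) enteroids carried Vil-CreERT2 and Myo5b-flox/G519R, and 24 h of 4-OH-tamoxifen at 1 µM induced Cre in both. The controls are described in the methods as Vil-CreERT2;Myo5b-flox/flox enteroids given vehicle and elsewhere as healthy littermates, so a direct effect of 4-OH-tamoxifen cannot be told apart from loss of MYO5B. The last group was MYO5BΔIEC enteroids that received Compound-1, an agonist of the lysophosphatidic acid receptor LPAR5, at 100 nM for 2 days, where plain MYO5BΔIEC enteroids received vehicle. Cre was driven by the promoter of villin, whose gene Vil1 is one of the members. The libraries held 27804968 to 40101729 counted reads each. Myo5b itself, as a check of the labels, had a log2 fold change against control of -0.55 (± 0.19 SE, edgeR q = 0.0503) in MYO5BΔIEC enteroids and -0.33 (± 0.14 SE, edgeR q = 0.109) in MYO5B(G519R) enteroids, past the threshold in neither. Culture 3 of each model (169 and 173 CPM) was above control culture 1 (160 CPM), so both overlapped the controls. The Compound-1-treated MYO5BΔIEC cultures, at 149, 106, 87.2 and 101 CPM, were all below every control, as 13.6% of all genes were. Each of 14 enterocyte markers reached 10 counts in at least 1 library of every group, whereas of 7 fibroblast markers Col3a1, Dcn and Lum were at 0 in every library and Vim, which is not particular to fibroblasts, was at 8.12 to 43.1 CPM.

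Levels are given as CPM, the reads of a gene relative to the size of its library as scaled by edgeR's TMM method, in the order of cultures 1 to 4 of a group, and the cultures of different groups that share a number were not taken as pairs. Differences are log2 fold changes from edgeR's quasi-likelihood test over all genes, and edgeR q is the Benjamini-Hochberg adjusted p of that test, with a threshold of 0.05 and n = 4 cultures per group. RNA was measured from whole cultures, so that more cells of a type and more RNA per cell cannot be told apart.

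The stretches upstream of 4 members are shown because these genes carry the contrasts described below, Vil1 against Pls1 in the core and Cdhr5 against Ush1c in the adhesion complex. Each is the 250 bases before the RefSeq start of the gene in GRCm38.p6, printed on the strand of the gene. The Vil1 window lies at chr1:74409134-74409383 (plus strand), the Pls1 window at chr9:95845280-95845529 (minus strand), the Cdhr5 window at chr7:141276787-141277036 (minus strand) and the Ush1c window at chr7:46238491-46238740 (minus strand). Capitals mark the letters CAAAGNNC, a core of sites for the enterocyte factor HNF4, and the CArG box, the site of serum response factor, on either strand.
Vil1: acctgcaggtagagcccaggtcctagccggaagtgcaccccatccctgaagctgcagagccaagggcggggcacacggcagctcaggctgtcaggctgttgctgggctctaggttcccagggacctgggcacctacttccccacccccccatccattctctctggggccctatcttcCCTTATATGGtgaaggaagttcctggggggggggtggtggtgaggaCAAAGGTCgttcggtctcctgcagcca
Pls1: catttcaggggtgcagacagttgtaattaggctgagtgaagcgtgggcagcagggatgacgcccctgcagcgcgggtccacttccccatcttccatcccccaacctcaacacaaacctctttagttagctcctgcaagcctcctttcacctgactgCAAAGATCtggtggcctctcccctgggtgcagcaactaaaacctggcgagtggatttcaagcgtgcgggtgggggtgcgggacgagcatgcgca
Cdhr5: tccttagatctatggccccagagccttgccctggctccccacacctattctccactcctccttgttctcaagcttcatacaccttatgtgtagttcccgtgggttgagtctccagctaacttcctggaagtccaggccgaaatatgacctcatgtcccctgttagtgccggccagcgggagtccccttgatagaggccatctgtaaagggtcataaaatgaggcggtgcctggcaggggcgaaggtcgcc
Ush1c: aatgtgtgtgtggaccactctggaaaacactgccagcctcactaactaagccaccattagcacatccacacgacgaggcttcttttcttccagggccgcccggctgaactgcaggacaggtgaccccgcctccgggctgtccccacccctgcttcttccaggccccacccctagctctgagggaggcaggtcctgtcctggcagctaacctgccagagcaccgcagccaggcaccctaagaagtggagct
Counted from the start, the CArG box of Vil1 began at -73 and its CAAAGNNC at -27, and the CAAAGNNC of Pls1 began at -94. Of the members 8 of 10 were in the promoter table, with 10 windows because Espn has several starts. CAAAGNNC was in 2 of these 10 windows and in 15.4% of all 32851 windows, and the CArG box was in 1 of 10 and in 1.47% of all. The letters TTTATNG, of the type that CDX factors bind, were in 1 of 10 windows against 9.81% of all, and TATAAA was in 0 of 10 against 12.4%. The 4 motifs were chosen after the windows had been read, their letters do not overlap one another in the windows shown, and a match is a description and not a binding site. Vil1 and Pls1 both held CAAAGNNC, Cdhr5 and Ush1c held none, and a link of these letters to the RNA levels was not tested.

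The 10 members together were higher in both MYO5B models than in controls. They made up 0.201% ± 0.0198 (SD, n = 4) of all counted reads in control cultures, 0.452% ± 0.0540 in MYO5BΔIEC cultures and 0.388% ± 0.0687 in MYO5B(G519R) cultures. Of the 10, 8 rose and 0 fell in MYO5BΔIEC enteroids, where edgeR called 13.5% of the 17951 genes tested higher and 13.8% lower, and the median log2 fold change of the members was 0.98 beside -0.01 for all genes. In MYO5B(G519R) enteroids 8 again rose and 0 fell, where 13.1% of 17829 genes were called higher and 13.7% lower, and the median was 0.76 beside -0.05. In each model 7 of the 10 had every mutant culture above every control culture, as did 13.0% of all genes for MYO5BΔIEC and 13.6% for MYO5B(G519R). Pls1 and Ush1c were past the threshold in neither model. All comparisons with the controls share the same 4 control cultures, so the models are not independent of each other.

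**Figure D1:**
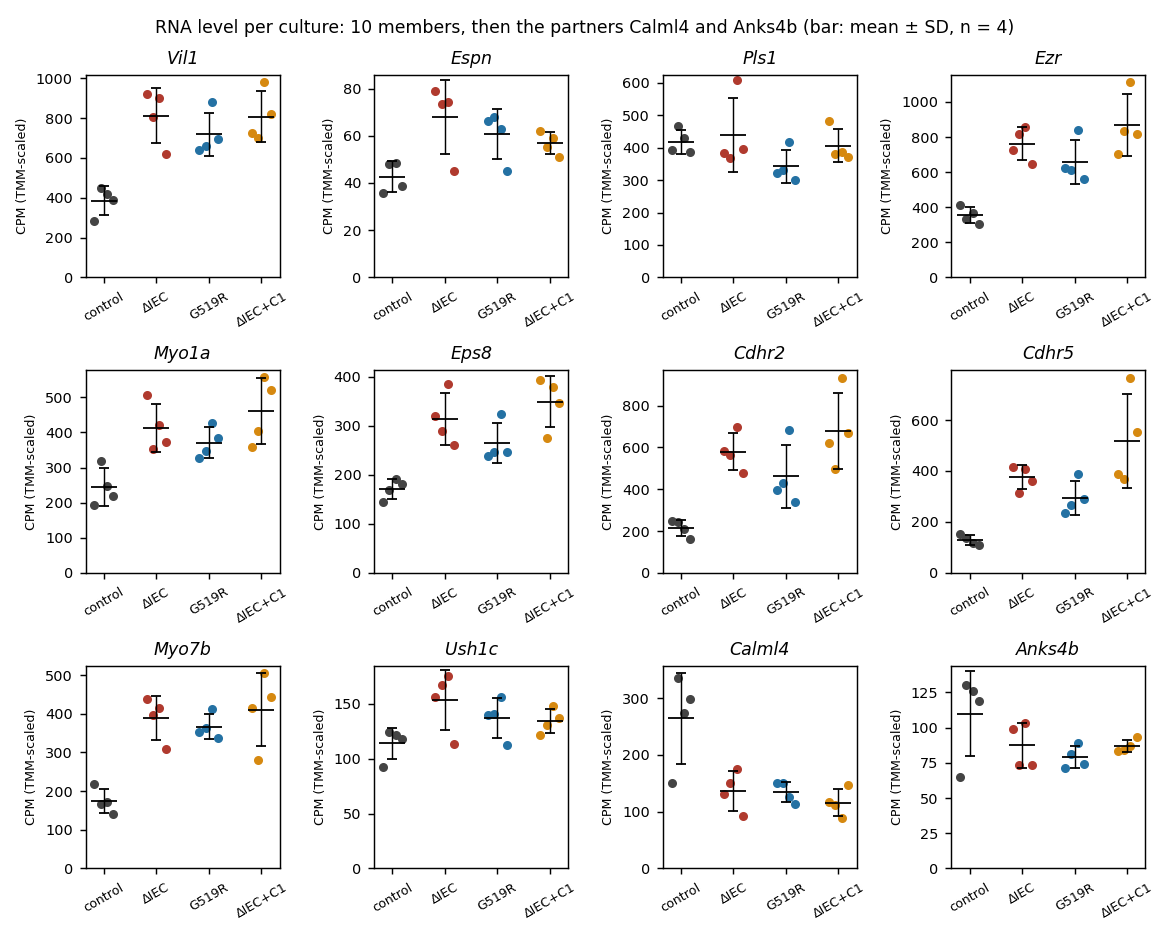
RNA level in CPM (TMM-scaled, vertical axes from 0) of the 10 members and of the partners Calml4 and Anks4b in each culture, by group; points are cultures 1 to 4 from left to right, the long bar is the mean and the error bar the SD (n = 4). For 7 members the 12 mutant cultures lie above all 4 controls, Espn, Pls1 and Ush1c overlap them, and 11 of 12 lie below all 4 controls for Calml4.

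Among the bundlers of the actin core, villin and espin RNA rose and fimbrin RNA did not pass the test. Vil1 (ENSMUSG00000026175, chromosome 1, 74409376 to 74435559) encodes villin, which bundles actin and at high calcium severs it. Its levels were 281, 449, 419 and 389.9 CPM in control, 922, 804, 898 and 619.8 CPM in MYO5BΔIEC and 640.3, 660.4, 879 and 694 CPM in MYO5B(G519R) cultures. No mutant culture reached down to the highest control. The log2 fold change was 1.08 (± 0.19 SE, edgeR q = 0.00380) for MYO5BΔIEC, a 2.12-fold rise, and 0.90 (± 0.17 SE, edgeR q = 0.00622) for MYO5B(G519R), a 1.87-fold rise. Vil1 overlaps Usp37 on the opposite strand, and no strand-marking step is described for the libraries, so reads of the shared stretch cannot be assigned. Usp37 held 1320 to 1854 counts per library, far fewer than Vil1.

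Espn (ENSMUSG00000028943, chromosome 4, 152120331 to 152152371) encodes espin, a bundler that sets the length of microvilli and stereocilia. It was at 35.5, 48.0, 48.4 and 38.7 CPM in control, 79.0, 73.5, 74.5 and 44.9 CPM in MYO5BΔIEC and 66.3, 68.1, 63.1 and 45.3 CPM in MYO5B(G519R) cultures. In both models culture 4 lay within the control range and the other 3 above it. It rose by a log2 fold change of 0.68 (± 0.19 SE, edgeR q = 0.0257) in MYO5BΔIEC and 0.51 (± 0.16 SE, edgeR q = 0.0414) in MYO5B(G519R). The MYO5BΔIEC call was lost without control culture 4 or MYO5BΔIEC culture 1, 2 or 3 (edgeR q from 0.0623 to 0.0767). The MYO5B(G519R) call was lost without control culture 2, 3 or 4 or MYO5B(G519R) culture 1, 2 or 3 (edgeR q from 0.0572 to 0.114).

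Pls1 (ENSMUSG00000049493, chromosome 9, 95752642 to 95845311) encodes fimbrin, also named plastin 1, which packs actin filaments in the core and anchors them to the terminal web. Its levels were 392, 466, 429 and 387 CPM in control, 384, 369.6, 609.8 and 396 CPM in MYO5BΔIEC and 321, 330.4, 417 and 301 CPM in MYO5B(G519R) cultures. Apart from MYO5BΔIEC culture 3, every culture of both these groups lay within or below the control range. The log2 fold change was 0.08 (95% interval -0.33 to 0.48, edgeR q = 0.791) in MYO5BΔIEC and -0.29 (-0.60 to 0.02, edgeR q = 0.152) in MYO5B(G519R). Without MYO5BΔIEC culture 3 the first value was -0.12.

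Genes that tie the core to the membrane or act at its tip rose in both models. Ezr (ENSMUSG00000052397, chromosome 17, 6738041 to 6782784) encodes ezrin, which links actin to membrane proteins once it is phosphorylated. Ezr was at 410.1, 333, 368 and 305 CPM in control, 725, 815, 858 and 648 CPM in MYO5BΔIEC and 622, 613, 838 and 558 CPM in MYO5B(G519R) cultures. The groups did not overlap with control. The change was 1.11 (± 0.16 SE, edgeR q = 0.00181) and 0.89 (± 0.16 SE, edgeR q = 0.00484) on the log2 scale, 2.16-fold and 1.86-fold. Sytl3, on the opposite strand of part of Ezr, held only 32 to 122 counts per library.

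Myo1a (ENSMUSG00000025401, chromosome 10, 127705170 to 127720940) encodes brush border myosin I, which forms the lateral bridges from core to membrane. It was at 194, 317, 247 and 219 CPM in control, 507, 352, 420.1 and 374 CPM in MYO5BΔIEC and 326, 347, 426 and 383 CPM in MYO5B(G519R) cultures. The lowest mutant culture of each model was only just above control culture 2. Myo1a rose by 0.76 (± 0.19 SE, edgeR q = 0.0143) in MYO5BΔIEC and 0.60 (± 0.17 SE, edgeR q = 0.0265) in MYO5B(G519R) on the log2 scale. Without control culture 4 the first call was lost (edgeR q = 0.0502), and the second without control culture 3 or 4 or MYO5B(G519R) culture 2, 3 or 4 (edgeR q from 0.0534 to 0.0785).

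Eps8 (ENSMUSG00000015766, chromosome 6, 137477245 to 137654876) encodes a capping and bundling protein found at microvillus tips. Its levels were 145, 168, 192 and 180.4 CPM in control, 321, 289, 384 and 260.2 CPM in MYO5BΔIEC and 239, 247, 325 and 247 CPM in MYO5B(G519R) cultures, without overlap between control and either model. It rose by 0.88 (± 0.16 SE, edgeR q = 0.00404) and 0.63 (± 0.14 SE, edgeR q = 0.0113). Eps8 is the longest member (12355 bases of gene length in the files) and Espn the next (8272 bases). Across all genes the log2 fold change correlated with gene length (Spearman's rho across genes 0.286 for MYO5BΔIEC and 0.294 for MYO5B(G519R), a description, since genes share the libraries). With that trend taken out, Eps8 was no longer called in MYO5B(G519R) (0.36, edgeR q = 0.117), nor Espn in MYO5BΔIEC (0.130) or MYO5B(G519R) (0.203). The medians of the 10 members were then 0.87 and 0.73.

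The cadherins of the intermicrovillar adhesion complex rose in both models. Cdhr2 (ENSMUSG00000034918, chromosome 13, 54701461 to 54736662) encodes protocadherin 24, one side of the link between microvillus tips. Its levels were 249, 242, 210.2 and 164 CPM in control, 584, 565, 696 and 477 CPM in MYO5BΔIEC and 398, 432, 681 and 339.6 CPM in MYO5B(G519R) cultures. All 8 mutant cultures were above the highest control, with MYO5B(G519R) culture 4 the closest. The log2 fold change was 1.43 (± 0.18 SE, edgeR q = 0.00144) in MYO5BΔIEC, 2.70-fold, and 1.10 (± 0.23 SE, edgeR q = 0.00779) in MYO5B(G519R), 2.14-fold.

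Cdhr5 (ENSMUSG00000025497, chromosome 7, 141269083 to 141276786) encodes the mucin-like protocadherin that binds CDHR2 on the neighboring microvillus. It was at 151, 137, 118 and 108 CPM in control, 417, 315, 408 and 362 CPM in MYO5BΔIEC and 234, 268, 388 and 289 CPM in MYO5B(G519R) cultures. Even the lowest mutant culture stood well above the highest control. The rise was 2.93-fold in MYO5BΔIEC, or 1.55 in log2 (± 0.16 SE, edgeR q = 0.00127), and 2.29-fold in MYO5B(G519R), at 1.20 (± 0.18 SE, edgeR q = 0.00255). Cdhr5 and then Cdhr2 had the highest estimates of the 10 members, but in MYO5B(G519R) Cdhr2 was close to Myo7b (1.07), and without MYO5B(G519R) culture 3 it was at 0.85, below Myo7b at 1.01. Among all genes tested the values of Cdhr5 stood at percentile 96.2 and 95.5.

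The motor of the complex rose in both models and the scaffold passed the test in neither. Myo7b (ENSMUSG00000024388, chromosome 18, 31959234 to 32036961) encodes the motor that carries the complex to the microvillus tip. Its levels were 218, 167, 172 and 141 CPM in control, 438, 397, 415 and 308 CPM in MYO5BΔIEC and 353, 363, 414 and 336 CPM in MYO5B(G519R) cultures. The groups were separate. Myo7b rose by 1.17 (± 0.17 SE, edgeR q = 0.00207) in MYO5BΔIEC and by 1.07 (± 0.15 SE, edgeR q = 0.00222) in MYO5B(G519R) on the log2 scale.

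Ush1c (ENSMUSG00000030838, chromosome 7, 46195350 to 46238503) encodes harmonin, the PDZ scaffold that joins the cadherin tails to MYO7B. It was at 92.4, 124, 121 and 118 CPM in control, 156, 167, 175 and 114 CPM in MYO5BΔIEC and 139.9, 140.4, 156 and 112 CPM in MYO5B(G519R) cultures. In each model cultures 1 to 3 were above the controls and culture 4 was within their range. The log2 fold change was 0.43 (95% interval 0.07 to 0.80, edgeR q = 0.0763) in MYO5BΔIEC and 0.27 (-0.04 to 0.58, edgeR q = 0.179) in MYO5B(G519R). The MYO5BΔIEC value passed without MYO5BΔIEC culture 4 (edgeR q = 0.0213) and with all 4 groups in 1 fit (0.0355). Gm9860, on the opposite strand within Ush1c, held 310 to 1061 counts per library, and reads of the shared stretch cannot be assigned to either gene.

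**Figure D2:**
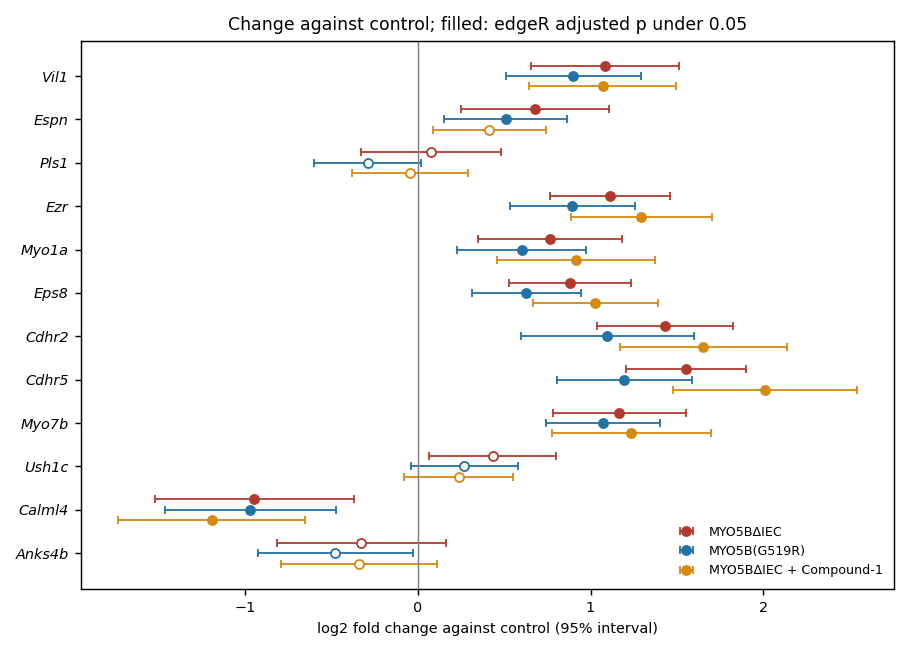
log2 fold change against control (horizontal axis) with its 95% interval for the 10 members and the partners Calml4 and Anks4b in MYO5BΔIEC (red), MYO5B(G519R) (blue) and treated MYO5BΔIEC enteroids (orange); filled points have an edgeR adjusted p under 0.05. Cdhr5 lies farthest to the right, Pls1 lies at or left of 0.08 in all 3 comparisons, and both partners lie left of 0.

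The remaining proteins of the complex are not members, and neither was called higher. Calml4 (ENSMUSG00000032246, chromosome 9, 62858080 to 62875921) encodes a calmodulin-like light chain of MYO7B. Its levels were 151, 336, 273 and 299 CPM in control, 130.5, 150.2, 175 and 91.7 CPM in MYO5BΔIEC and 150.0, 150.4, 126 and 114 CPM in MYO5B(G519R) cultures. Control culture 1 was far below the other controls and overlapped MYO5BΔIEC culture 3, while all MYO5B(G519R) cultures lay below all controls, as 13.8% of all genes did. Calml4 fell, with log2 fold changes of -0.95 (± 0.26 SE, edgeR q = 0.0226) in MYO5BΔIEC and -0.97 (± 0.22 SE, edgeR q = 0.0123) in MYO5B(G519R). The first call was lost without control culture 2, 3 or 4 or MYO5BΔIEC culture 1, 2 or 4 (edgeR q from 0.0511 to 0.0664).

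Anks4b (ENSMUSG00000030909, chromosome 7, 120173858 to 120185586) encodes the ankyrin repeat protein that binds harmonin in the complex. It was at 65.0, 130.1, 126 and 119 CPM in control, 98.7, 73.7, 103 and 73.5 CPM in MYO5BΔIEC and 71.6, 81.1, 88.8 and 74.4 CPM in MYO5B(G519R) cultures. The mutant cultures lay between control culture 1 and the other 3 controls. The log2 fold changes of -0.33 (± 0.22 SE, edgeR q = 0.305) and -0.48 (± 0.20 SE, edgeR q = 0.107) did not pass. Without control culture 1 both passed as lower (-0.51, edgeR q = 0.0139, and -0.63, edgeR q = 3.82e-04). That culture also had the lowest summed level of the 14 enterocyte markers of any library.

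Levels can be compared between genes only per length, so the deposited FPKM (reads relative to both the length of the gene and the library) were used for the order of the members. In controls Vil1 (105 ± 19.2 FPKM, SD, n = 4), Ezr (105 ± 14.7) and Pls1 (105 ± 8.93) were the most abundant and overlapped. Myo1a (64.0 ± 13.6 FPKM), Cdhr2 (51.1 ± 9.56) and Cdhr5 (45.8 ± 7.39) came next, each overlapping its neighbor, and within each culture all 3 were below the first 3 genes. Ush1c (28.8 ± 3.41 FPKM) and Myo7b (25.7 ± 5.05) overlapped each other. Eps8 (13.5 ± 1.47 FPKM) and Espn (5.02 ± 0.744) stood apart at the low end.

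In MYO5BΔIEC cultures the order changed in its upper part. Ezr (231 ± 30.3 FPKM) and Vil1 (228 ± 39.1) overlapped at the top and were above all others. Cdhr2 (140.0 ± 22.0 FPKM) and Cdhr5 (136 ± 16.0) now stood beside Pls1 (112 ± 28.7) and Myo1a (111 ± 17.9), with neighbors in the order overlapping. Myo7b (58.6 ± 8.81 FPKM) was above Ush1c (39.6 ± 7.37) in every culture, where the controls overlapped. MYO5B(G519R) cultures had Vil1 (201 ± 31.0 FPKM) and Ezr (199 ± 38.0) at the top in the same way, with Pls1 (87.5 ± 13.4) below Myo1a (99.2 ± 11.7) on average, though overlapping it.

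**Figure D3:**
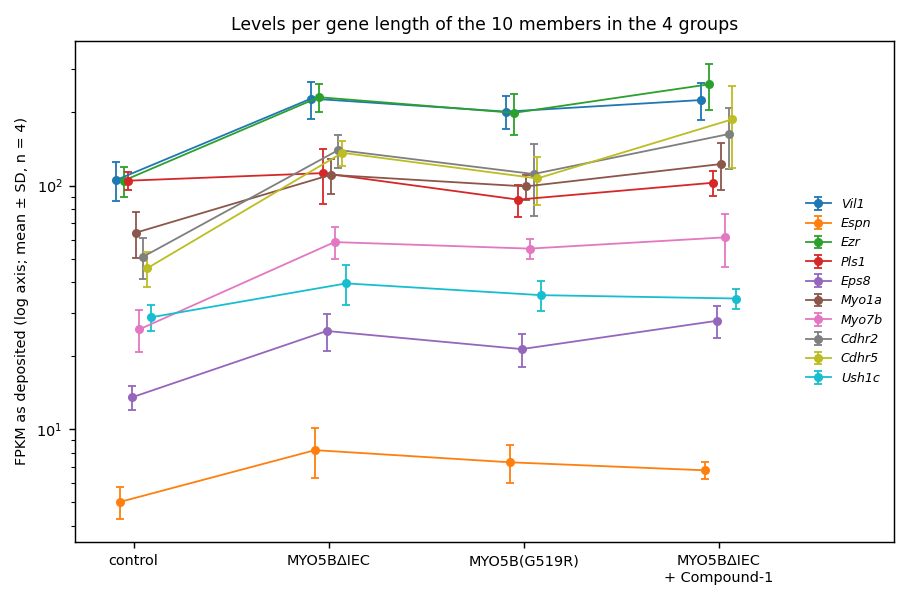
FPKM as deposited (log axis, mean ± SD, n = 4) of the 10 members in each group, with controls at the left and treated cultures at the right; lines join the means of a gene. Vil1, Ezr and Pls1 start together near 105 FPKM in control and Pls1 stays at 87.5 to 112 while Vil1 and Ezr are at 199 to 261 in the other groups.

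Ratios of paired transcripts within a culture do not depend on how libraries are scaled. The pairs were chosen after the levels had been seen, so the ratios are given as a description with no test. Pls1 to Vil1 was 0.906 to 1.27 in control cultures. It was 0.380 to 0.620 in MYO5BΔIEC cultures, 0.396 to 0.457 in MYO5B(G519R) cultures and 0.360 to 0.608 in Compound-1-treated cultures. Fimbrin RNA thus stood near villin RNA in controls and well below it in every other culture.

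Ush1c to Cdhr2, the scaffold relative to a cadherin it binds, was 0.399 to 0.769 in control, 0.256 to 0.318 in MYO5BΔIEC cultures, 0.246 to 0.377 in MYO5B(G519R) cultures and 0.170 to 0.281 in treated cultures. Calml4 to Myo7b, a light chain relative to its motor, was 1.26 to 3.86 in control and 0.541 to 0.769, 0.556 to 0.772 and 0.320 to 0.723 in the other groups in the same order. For Anks4b to Ush1c the ranges were 0.694 to 1.03, 0.435 to 0.637, 0.505 to 0.654 and 0.583 to 0.676. All 3 ratios were lower in every mutant culture than in every control. By contrast the ratios within pairs that rose together overlapped between control and MYO5BΔIEC cultures. Cdhr5 to Cdhr2 was 0.850 to 0.988 in control and 0.840 to 1.14 in MYO5BΔIEC, and Ezr to Vil1 was 0.801 to 1.57 and 0.848 to 1.13. Treated cultures were less alike to control, with Cdhr5 to Cdhr2 at 0.940, 1.11, 1.24 and 1.25, all but the first above every control. Their Ezr to Vil1 of 1.05 to 1.29 overlapped the controls only through control culture 1 (1.57), the others being at 0.801 to 0.949.

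**Figure D4:**
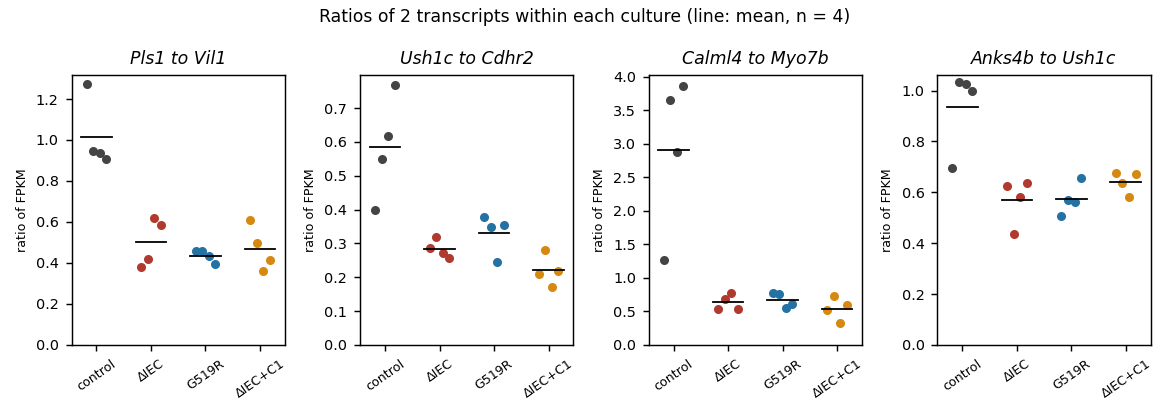
Ratio of the FPKM of 2 genes within each culture (vertical axes from 0) for Pls1 to Vil1, Ush1c to Cdhr2, Calml4 to Myo7b and Anks4b to Ush1c; points are cultures and the line is the group mean (n = 4). In each panel the 4 controls lie above the 12 other cultures.

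No difference of a member between Compound-1 and vehicle was detectable in MYO5BΔIEC enteroids with 4 cultures a group. In edgeR 0 of the 10 passed against MYO5BΔIEC with vehicle, 0 had an unadjusted p under 0.05, and 0 were called by DESeq2. Over all 18037 genes edgeR called 0 (0%), 1355 had an unadjusted p under 0.05 and DESeq2 called 100. The fold changes of the members ran from -0.29 for Espn to 0.43 for Cdhr5, and their 95% intervals together spanned -0.68 to 0.92. Cdhr5 was at 388, 368, 764 and 555 CPM in treated cultures, of which cultures 3 and 4 were above every vehicle culture (95% interval -0.05 to 0.92, edgeR q = 0.713). Vil1, at 724, 701, 983 and 823 CPM, overlapped its vehicle cultures, with an interval of -0.42 to 0.34. Culture 3 was the highest treated culture for Vil1, Ezr, Myo1a, Myo7b, Cdhr2, Cdhr5 and Ush1c.

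Against control, treated enteroids had 7 of the 10 members higher and 0 lower, where 15.7% of 17937 genes were called higher and 13.7% lower, with a median of 1.05 beside -0.05 for all genes. Cdhr5 rose 4.03-fold, to a log2 fold change of 2.01 (± 0.24 SE, edgeR q = 0.00398). Cdhr2 rose by 1.65 (± 0.22 SE, edgeR q = 0.00398), and Ezr, at 703, 837, 1116 and 816 CPM, by 1.29 (± 0.18 SE, edgeR q = 0.00398). The other called members were Myo7b (1.24), Vil1 (1.07), Eps8 (1.03) and Myo1a (0.92).

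Some markers of cell types differed from control in these treated cultures as well, and their part in the rise of the members was not tested. Of 14 enterocyte markers 2 were higher and 5 lower (median log2 fold change -0.53), with summed levels of 6480.4 to 9596 CPM against 4479 to 17871 in control, or 14267 to 17871 without control culture 1. Tuft markers had 0 of 7 tested higher and 5 lower (median -1.33), and their sums of 10.1 to 16.8 CPM were all below the 21.0 to 45.4 of the controls. Proliferation genes had 0 of 8 higher and 4 lower (median -0.69). Goblet markers had 2 of 7 higher and 2 lower (median 1.37). Their sums of 2565, 2318, 6300 and 4459 CPM were all above the 1880 to 2177 of the controls. Paneth markers had 1 of 6 lower, enteroendocrine markers 1 of 8 higher and stem cell markers 1 of 6 lower. Over all genes 15.7% were called higher and 13.7% lower, and the Paneth, enteroendocrine and stem cell counts are near those shares. Stem cell sums of 648 to 1851 CPM were below the 2343 to 6393 of the controls, but without Olfm4 they overlapped (420 to 806 against 548 to 774). Paneth sums were 3264 to 4647 CPM against 3243 to 7738 in control, or 6648 to 7738 without control culture 1.

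Espn, at 61.9, 55.1, 59.1 and 51.2 CPM, had all treated cultures above all controls but missed the threshold at 0.41 (± 0.15 SE, edgeR q = 0.0578). Without control culture 1 it passed (edgeR q = 0.0492), as it did with DESeq2 (DESeq2 q = 0.0415). In all, 8 members had every treated culture above every control, as did 14.3% of all genes. Ush1c (0.24, 95% interval -0.08 to 0.55) and Pls1 (-0.04, -0.38 to 0.29) did not pass. Calml4, at 117, 111, 88.9 and 146 CPM, fell below every control, as 13.6% of all genes did, and its log2 value was -1.19 (± 0.24 SE, edgeR q = 0.00791). Anks4b had a value of -0.34 (± 0.20 SE, edgeR q = 0.236), and without control culture 1 of -0.50 (edgeR q = 0.00426).

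The 2 MYO5B models were also compared directly. None of the 10 members passed between MYO5B(G519R) and MYO5BΔIEC, with 0 at an unadjusted p under 0.05 and 0 by DESeq2, where edgeR called 0.00557% of 17943 genes and 772 had an unadjusted p under 0.05. All 10 values were below 0, with a median of -0.19, from -0.36 for Pls1 (95% interval -0.74 to 0.02) to -0.09 for Myo7b (-0.38 to 0.21). Cdhr5 (-0.35, -0.70 to 0.01) and Cdhr2 (-0.33, -0.78 to 0.13) were next to Pls1. The common direction was not tested.

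Lists of related genes place the members in the wider brush border. For all lists below, the shares over all genes were 13.5% higher and 13.8% lower in MYO5BΔIEC. In MYO5B(G519R) these shares were 13.1% and 13.7%. Of 12 tested proteins of the microvillus tip and other actin bundlers, 6 rose and 0 fell in MYO5BΔIEC, and 3 rose and 0 fell in MYO5B(G519R), at median log2 fold changes of 0.91 and 0.48. The paralog Eps8l2 rose by 1.28 (± 0.17 SE, edgeR q = 0.00149) in MYO5BΔIEC and 0.95 (± 0.15 SE, edgeR q = 0.00310) in MYO5B(G519R). Tmigd1, an adhesion protein of the brush border at 0.0940 to 0.631 CPM in control and 1.14 to 1.92 in MYO5BΔIEC cultures, rose by 1.99 (± 0.48 SE, edgeR q = 0.0126) in MYO5BΔIEC and had a value of 1.58 (± 0.60 SE, edgeR q = 0.0785) in MYO5B(G519R).

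The villin family, proteins built on gelsolin repeats that cut, cap or bundle actin, had 5 of 7 genes higher and 0 lower in each model. Gsn, gelsolin itself, was at 24.7 to 35.6 CPM in the controls, 98.6 to 139 CPM in MYO5BΔIEC cultures and 77.3 to 137 CPM in MYO5B(G519R) cultures. It rose by 2.03 (± 0.16 SE, edgeR q = 6.14e-04) and 1.75 (± 0.20 SE, edgeR q = 0.00183), values above those of all 10 members. Capg, a capping protein of the family, rose by 1.30 (± 0.24 SE, edgeR q = 0.00454) and 1.40 (± 0.25 SE, edgeR q = 0.00459).

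Of the 16 other brush border myosins and proteins of the terminal web, the actin and spectrin mat under the microvilli, 10 rose and 0 fell in MYO5BΔIEC. In MYO5B(G519R) 9 rose and in treated enteroids 14, with 0 lower in both. Of all genes 15.7% were called higher in treated enteroids and 13.7% lower. Myh14, a non-muscle myosin II heavy chain, rose by 1.60 (± 0.21 SE, edgeR q = 0.00168) in MYO5BΔIEC and 1.47 (± 0.21 SE, edgeR q = 0.00225) in MYO5B(G519R). Myh9, another heavy chain, was at 239 to 378 CPM in control and 715 to 872 in MYO5BΔIEC cultures and rose by 1.42 (± 0.17 SE, edgeR q = 0.00142) and 1.40 (± 0.18 SE, edgeR q = 0.00196).

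Among 12 paralogs, kinases and scaffolds of ezrin, 6 rose in MYO5BΔIEC and 3 in MYO5B(G519R), and 0 fell. The 6 include Msn, which is set apart below because of how it passed the filter. Stk10, a kinase that phosphorylates ezrin, rose by 2.08 (± 0.36 SE, edgeR q = 0.00354) and 1.54 (± 0.42 SE, edgeR q = 0.0252). Msn, the ezrin paralog moesin, was called higher in MYO5BΔIEC (edgeR q = 0.0345) at 11 to 47 counts per library against 0 to 9 in control, so that it passed the filter through the mutant cultures and no fold is given. Of 9 genes of the stereocilia, whose tip links use relatives of the same complex, 6 were tested, of which 1 rose in MYO5BΔIEC and 2 in MYO5B(G519R), with 0 lower. The 1 of 6 is near the 13.5% of all genes called higher in MYO5BΔIEC, beside 13.1% in MYO5B(G519R). Myo7a, the counterpart of Myo7b, rose by 1.86 (± 0.27 SE, edgeR q = 0.00200) and 1.58 (± 0.24 SE, edgeR q = 0.00305).

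A list of transcription factors of the intestinal epithelium had 3 of 11 higher and 0 lower in MYO5BΔIEC and 7 higher and 1 lower in MYO5B(G519R). Prdm1, a repressor of the mature enterocyte program in the neonatal gut, rose by 1.36 (± 0.42 SE, edgeR q = 0.0366) in MYO5BΔIEC. Klf4, a factor of differentiated epithelium, rose by 1.06 (± 0.20 SE, edgeR q = 0.00477) and 0.84 (± 0.21 SE, edgeR q = 0.0157). The gene that fell in MYO5B(G519R) was Hnf4g, at -1.06 (± 0.25 SE, edgeR q = 0.0143), named after its value was seen.

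Markers of cell types moved beside the members, and their part in the results was not tested. Of 14 enterocyte markers 3 rose and 0 fell in MYO5BΔIEC, where 13.5% of all genes were called higher and 13.8% lower. In MYO5B(G519R) 2 rose and 3 fell, beside 13.1% and 13.7%. By sign 8 of the 14 were above 0 in MYO5BΔIEC and 6 below, down to -1.56. Fabp1, named after its levels were seen, was at 580 to 1628 CPM in MYO5BΔIEC cultures. It was at 245 CPM in control culture 1 and 3676 to 4447 CPM in control cultures 2 to 4. The summed level of the list was 4479 to 17871 CPM in the controls, 7647 to 15521 in MYO5BΔIEC cultures and 6684 to 10608 in MYO5B(G519R) cultures. The overlap of MYO5B(G519R) with control rests on control culture 1, since the other 3 controls were at 14267 to 17871 CPM and above every MYO5B(G519R) culture. Anpep, the brush border aminopeptidase N, rose by 1.58 (± 0.17 SE, edgeR q = 0.00140) and 1.23 (± 0.18 SE, edgeR q = 0.00247), and Alpi, intestinal alkaline phosphatase, by 1.24 (± 0.29 SE, edgeR q = 0.0122) in MYO5BΔIEC. The markers that fell in MYO5B(G519R), named after their values were seen, were the peptidases Mme, at -1.40 (± 0.35 SE, edgeR q = 0.0188), and Dpp4, at -0.74 (± 0.16 SE, edgeR q = 0.00882), and the disaccharidase Sis, at -1.10 (± 0.36 SE, edgeR q = 0.0464). The median log2 fold change of the list was 0.40 in MYO5BΔIEC and -0.20 in MYO5B(G519R).

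Proliferation genes had 5 of 8 lower and 0 higher in MYO5BΔIEC and 4 lower in MYO5B(G519R), with summed levels of 1865 to 2305 CPM in the controls, 1242 to 1655 in MYO5BΔIEC cultures and 1506 to 1949 in MYO5B(G519R) cultures. Cdk1, at -0.98 (± 0.18 SE, edgeR q = 0.00411), and Birc5, at -0.96 (± 0.17 SE, edgeR q = 0.00396), fell most in MYO5BΔIEC. Of 6 stem cell markers 1 rose and 1 fell in each model: Rnf43 rose by 0.61 (± 0.13 SE, edgeR q = 0.00821) and Olfm4 fell, at -2.26 (± 0.48 SE, edgeR q = 0.00896), in MYO5BΔIEC. Counts of 1 in 6 are near the shares of all genes called higher (13.5%) and lower (13.8%) in MYO5BΔIEC. Olfm4 alone was at 1569 to 5709.9 CPM in control and 318 to 1292 in MYO5BΔIEC cultures. The other 5 stem cell markers summed to 548 to 774 and 659 to 841 CPM, which overlapped, and the median of the 6 was 0.09.

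Genes of the secretory and tuft lists were called in both directions, where 13.5% of all genes were called higher and 13.8% lower in MYO5BΔIEC, and the tuft share of 1 in 7 is near that background. Goblet markers had 2 of 7 higher (Clca1 1.61 (± 0.13 SE, edgeR q = 6.14e-04) and Fcgbp 1.42 (± 0.34 SE, edgeR q = 0.0127)) and 2 lower (Agr2 -0.96 (± 0.14 SE, edgeR q = 0.00207) and Spink4 -0.62 (± 0.20 SE, edgeR q = 0.0402)) in MYO5BΔIEC. Paneth markers had 2 of 6 lower, Itln1 at -0.83 (± 0.24 SE, edgeR q = 0.0272) and Lyz1 at -0.75 (± 0.24 SE, edgeR q = 0.0401). Enteroendocrine markers had 2 of 8 higher, Chga at 1.24 (± 0.29 SE, edgeR q = 0.0116) and Chgb at 0.70 (± 0.24 SE, edgeR q = 0.0485), and 1 of 7 tested tuft markers was lower, Pou2f3 at -1.04 (± 0.27 SE, edgeR q = 0.0166). In MYO5B(G519R) the counts were 2 higher and 3 lower for goblet, 2 lower for Paneth, 1 higher and 1 lower for enteroendocrine and 2 lower for tuft markers, beside 13.1% and 13.7% of all genes. Summed fibroblast markers were 14.9 to 37.9 CPM in control and 8.51 to 43.0 in MYO5BΔIEC cultures, and immune markers 4.14 to 5.67 and 5.93 to 11.6, where Cd68 rose by 1.09 (± 0.33 SE, edgeR q = 0.0332). Mitochondrially encoded genes took 6.41% to 10.4% of the counts in control and 3.79% to 6.63% in all other libraries. With those genes left out of the library sizes the median log2 fold changes of the members were 0.98 and 0.76.

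**Figure D5:**
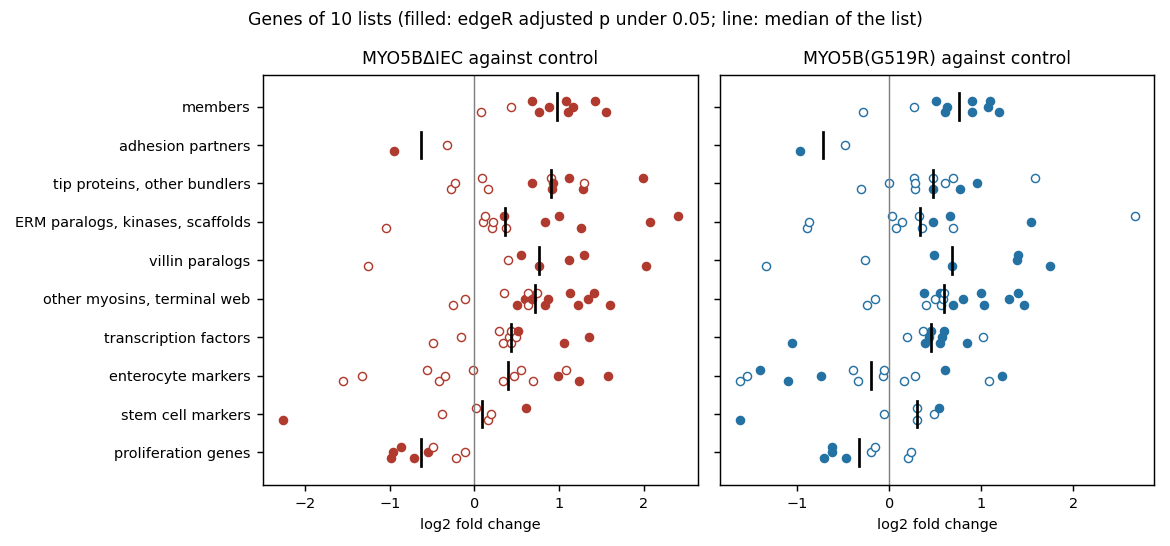
log2 fold change (horizontal axis) of each tested gene of 10 lists in MYO5BΔIEC and MYO5B(G519R) enteroids against control; each point is a gene, filled where the edgeR adjusted p is under 0.05, and the vertical line is the median of the list. The members, tip proteins, villin paralogs and terminal web genes have medians of 0.48 to 0.98. The adhesion partners and proliferation genes have medians below 0 in both panels. The enterocyte markers have a median of 0.40 in MYO5BΔIEC and -0.20 in MYO5B(G519R).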

How the data were processed

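The data were RNA-seq of 16 enteroid cultures. Per the labels and methods, the authors aligned reads to GRCm38 with STAR and counted them per gene with HTSeq, and the deposited tables hold these counts beside FPKM that the authors made from them. The treatment of multiply mapped reads is not given in the sources used here.

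The counts went into edgeR 4.0.16 (R 4.3.3) with TMM scaling and a minimum of 10 counts in 2 or more of the 8 libraries. Each fit held 2 groups, taken from the labels, and p-values of the quasi-likelihood F test were adjusted over all genes tested (Benjamini-Hochberg). The script was tested on simulated data. CPM used TMM factors over all 16 libraries. Alternatives used DESeq2 1.42.0 and limma 3.58.1. Replicates are cultures of different mice.

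The members and lists were chosen with earlier results of these data known. The text names all 10 members with Anks4b and Calml4, and of each other list up to 2 genes that rose and 2 that fell with the highest absolute log2 fold change among those called in MYO5BΔIEC against control. Upstream sequences are from RefSeq. Eps8 and Myo7b windows were not used here.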

Additional observations from a re-analysis of the deposited data

Results flagged for a closer look

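Each of the 10 members was examined in each of the 4 groups for a culture far from the other 3. The measure was the gap of the highest or lowest culture to its neighbor divided by the range of the group (Dixon's ratio). Both were taken on log2 CPM, while the levels below are given as CPM. In 4 of 40 such sets the ratio passed the 95% critical value for 4 samples, where chance gives about 1 in 20. Espn in MYO5BΔIEC culture 4 was at 44.9 CPM against 73.5 to 79.0 CPM in the other 3 (ratio 0.873). Pls1 stood out in MYO5BΔIEC culture 3, at 609.8 CPM against 369.6 to 396 CPM (ratio 0.860). It also did in Compound-1-treated culture 1, at 482 CPM against 372 to 387 CPM (ratio 0.843). Eps8 in MYO5B(G519R) culture 3 was at 325 CPM against 239 to 247 CPM (ratio 0.897).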

How the results depend on the processing

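Each culture was left out in turn, and 10 other settings were tried: DESeq2, edgeR with DESeq2 size factors, library sizes without the mitochondrially encoded genes, no filter, filterByExpr, 1 fit of all 4 groups, a replicate block, an offset for gene length, and limma with a pseudocount of 1 or of 0.1 on FPKM. Over the 10 members and 2 partners, 200 of 216 alternative values for MYO5BΔIEC against control, 201 of 216 for MYO5B(G519R), and 211 of 216 for treated enteroids kept their direction and their side of the threshold. The members called higher numbered 6 to 9 over the cultures left out and 7 to 9 over the other alternatives for MYO5BΔIEC, 6 to 8 and 6 to 8 for MYO5B(G519R), and 7 to 8 and 7 to 8 for treated enteroids. Calls were lost for Espn, Myo1a, Eps8 and Calml4 and gained for Ush1c, Espn and Anks4b, as given beside those genes, and Espn in MYO5B(G519R) was also lost in limma with a pseudocount of 1 (limma q = 0.0512). In treated enteroids Espn was also gained with DESeq2 size factors (edgeR q = 0.0465).

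Directions that turned were those of values near 0, none of them called. Calml4 in MYO5B(G519R) against MYO5BΔIEC went from -0.02 to 0.011 with the replicate block, 0.0098 in limma with a pseudocount of 1 and 0.011 with 0.1, and ranged over the cultures left out from -0.167 to 0.131. Likewise over the cultures left out, Pls1 ranged from -0.124 to 0.151 for MYO5BΔIEC and from -0.140 to 0.00855 for treated enteroids against control. Against vehicle, treated enteroids ranged from -0.153 to 0.0234 for Vil1, -0.242 to 0.0502 for Pls1, -0.0681 to 0.188 for Myo7b and -0.118 to 0.0524 for Anks4b.

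Cultures with the same number did not all deviate together in any comparison with control (correlations from -0.21 to 0.22 over 16383 genes), and for MYO5B(G519R) against MYO5BΔIEC the correlations were 0.122, 0.0716, 0.453 and 0.553, with 3 of 4 cultures closest to their own number. That is a hint of pairing from the data, but the labels give no pairing and culture 2 was closest to number 1, so the numbers were not taken as pairs. With the replicate block 0 members were called in that comparison too. For treated against vehicle MYO5BΔIEC enteroids the correlations were 0.0778, -0.126, 0.0927 and -0.133. With the replicate block the medians of the members were 0.98 for MYO5BΔIEC and 0.75 for MYO5B(G519R), and calls over all genes went from 4910 to 3647 and from 4778 to 3691. Over the cultures left out, calls over all genes numbered 2963 to 7474 for MYO5BΔIEC, 2880 to 8146 for MYO5B(G519R) and 2957 to 7459 for treated enteroids against control, each highest without control culture 1. For treated against vehicle enteroids they went from 0 to 12 with no filter and 100 with DESeq2, and for MYO5B(G519R) against MYO5BΔIEC from 1 to 2 with no filter, 4 with DESeq2 and 0 in limma. The cause of these shifts was not tested.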
